A study of Mus musculus with 22 samples.

Results

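The genes described here are 10 members of the BMP, activin and TGF-beta pathway. They comprise the secreted ligands Bmp2, Bmp4, Bmp6, Tgfb1, Tgfb2, Tgfb3 and Inhbb, the transcriptional targets Id1 and Id3, and Smad7, which is both a target and an inhibitor. They were chosen by symbol, with the fall of Bmp4 in the RPE of mice without AdipoR1 already known from these data. All 10 were found among the 53801 genes of the bulk count tables, through their Ensembl identifiers, and all 10 among the 19324 genes of the single-cell matrix. Ligands of this family bind paired receptor kinases at the cell surface, which phosphorylate SMAD proteins that enter the nucleus and switch target genes on or off. BMP ligands act mainly through Smad1, Smad5 and Smad9, whereas TGF-beta and activin act mainly through Smad2 and Smad3. In the developing eye BMP signals help to pattern the optic vesicle and the lens, and TGF-beta 2 is the main TGF-beta of the ocular fluids.

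The study asked how gene expression in retina and retinal pigment epithelium (RPE) changes in mice that lack the adiponectin receptor AdipoR1. Wild-type C57BL/6J mice (WT) were compared with AdipoR1-/- mice (KO), which carry the Adipor1tm1Dgen allele in all tissues and were backcrossed to C57BL/6J. Both sexes were used, and no treatment is given in the sources used here. Bulk RNA was sequenced from WT retina, KO retina, WT RPE and KO RPE at postnatal day 30 (P30), with 4 libraries in each group. Retinal cells were sequenced with droplets (10x v2 chemistry) at P19, P25 and P30, with 1 library for each genotype and age, each made from 4 pooled retinae. The P30 single-cell libraries were sequenced in a batch of their own on a NextSeq500, and the P19 and P25 libraries in another on a NovaSeq6000, so age P30 and batch cannot be told apart. Both genotypes of an age shared a batch.

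Reads counted on genes were 30443894, 29730832, 27443445 and 29568480 in the WT retina libraries 1 to 4, and 35118164, 32019140, 28778862 and 22734843 in the KO retina libraries. The RPE libraries held 37517613, 38409496, 34470584 and 20133143 counts in WT mice and 27767074, 25218270, 26128620 and 25331297 in KO mice. Levels below are CPM (counts as a fraction of the library, times 1e6) scaled by the trimmed mean of M values (TMM) within each tissue, unless another scale is named. The genotype comparisons used the quasi-likelihood test of edgeR, separately for retina and RPE, and p values were adjusted over every gene tested (Benjamini-Hochberg). A gene that rose or fell, or that passed, has an adjusted p below 0.05. In bulk tissue fewer cells of a type and less RNA per cell cannot be told apart.

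The targeted gene was read as a check of the labels. Adipor1 (ENSMUSG00000026457, chr1:134415378-134433351) was at 604.2, 600.1, 588.5 and 606.8 CPM in WT retina and at 141.9, 138, 136.2 and 137.6 CPM in KO retina. In the RPE it was at 378.3, 403.6, 478.9 and 373.9 CPM in WT mice and at 142.1, 148.3, 151.9 and 139.2 CPM in KO mice. The KO libraries were all lower than the WT libraries, in retina and RPE alike, and reads on the gene were left in every KO library.

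The tissue labels were read against marker genes. The 9 RPE markers summed to 53230, 34600, 49120 and 53780 CPM in the WT RPE libraries 1 to 4 and to 45280, 44620, 44980 and 46930 CPM in the KO RPE libraries, against 459.5 to 552.2 CPM in the retina libraries. Ttr was the most abundant of them in every RPE library, no RPE marker was at 0, and Best1 was low, at 0.951 ± 0.251 CPM (SD, n = 4) in WT RPE. Other tissue was present in the RPE libraries too, and unevenly. The 7 rod markers summed to 926.7, 14710, 14670 and 1397 CPM in WT RPE and to 599.9, 3513, 4994 and 940.5 CPM in KO RPE. The 10 lens markers summed to 32.4, 483, 36.3 and 999.2 CPM in WT RPE and to 44.1, 27.8, 18.4 and 19.5 CPM in KO RPE. WT RPE libraries 2 and 4 were thus high in lens RNA, with Cryaa the most abundant gene, and WT RPE libraries 2 and 3 were high in rod RNA. The 6 markers of the ciliary epithelium were also highest in WT RPE libraries 2 and 4, at 191.4, 247.8, 48.0 and 484.7 CPM in WT RPE and 111.9, 85.0, 58.3 and 60.4 CPM in KO RPE, with Optc the most abundant in 6 of the 8 libraries.

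WT RPE libraries were compared with WT retina libraries to see where each member is higher before the genotypes are compared. RPE libraries also hold more RNA of other cells: fibroblast markers summed to 523.6 to 1924 CPM in WT RPE and 21 to 26.9 CPM in WT retina, microglial markers to 428.8 to 682.1 and 67.2 to 71.4 CPM, and pericyte markers to 314.7 to 379.8 and 115.1 to 121.3 CPM. A higher level in RPE libraries therefore does not place a gene in RPE cells. Of the 10 members, 9 were higher in WT RPE than in WT retina, where 43.0% of the 21068 genes tested were higher, and 0 were lower, against 41.6% of all genes. At an unadjusted p below 0.05 and by DESeq2 the number lower was also 0. The median log2 difference was 2.88 over the members and 0.013 over all genes tested. Differences in log2 CPM were 7.87 for Bmp4, 6.95 for Bmp6, 6.27 for Bmp2, 3.38 for Tgfb1, 3.09 for Id3, 2.67 for Id1, 1.08 for Smad7, 0.95 for Tgfb3 and 0.88 for Inhbb. The WT RPE and WT retina libraries of Inhbb overlapped, and those of the other 8 did not. Tgfb2 was the exception, with a log2 difference of 0.31 (standard error 0.32; edgeR quasi-likelihood test, Benjamini-Hochberg adjusted p = 0.38) and overlapping libraries.

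Levels of different genes were compared per kilobase of exon (RPKM), with all 16 libraries scaled together. In WT RPE the order was Bmp4 at 145.8 ± 13.1 (SD, n = 4), Id3 at 59.6 ± 17.3, Id1 at 45.1 ± 6.32, Bmp6 at 34.0 ± 5.65, Bmp2 at 25.3 ± 2.52, Tgfb3 at 11.6 ± 1.42, Tgfb2 at 10.6 ± 6.46, Smad7 at 4.36 ± 0.203, Tgfb1 at 1.77 ± 0.435 and Inhbb at 1.66 ± 0.486 RPKM. Libraries overlapped between the neighbours Id3 and Id1, Id1 and Bmp6, Bmp6 and Bmp2, Tgfb3 and Tgfb2, and Tgfb1 and Inhbb, so these orders do not hold beyond the spread. In KO RPE Id3 stood at the top, at 102.2 ± 4.89 RPKM with a lowest library of 96.5, and Bmp4 followed at 83.0 ± 3.48 with a highest library of 86.4. The KO order went on with Id1 at 70.4 ± 5.96, Bmp6 at 18.2 ± 1.15, Tgfb3 at 17.2 ± 1.52, Bmp2 at 14.4 ± 1.44, Tgfb2 at 9.20 ± 2.39, Smad7 at 4.36 ± 0.309, Inhbb at 3.61 ± 0.289 and Tgfb1 at 2.29 ± 0.375 RPKM. There only the neighbours Bmp6 and Tgfb3, and Tgfb3 and Bmp2, overlapped.

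The retina had another order. In WT retina Tgfb2 had the highest mean, 8.58 ± 0.920 RPKM (SD, n = 4), with Id1 at 7.07 ± 0.719, Id3 at 7.003 ± 1.43 and Tgfb3 at 6.03 ± 0.590. Id3 reached 8.957 in a library and overlapped Tgfb2, whose lowest was 7.765, and Id1, Id3 and Tgfb3 overlapped as neighbours. Smad7 followed at 2.06 ± 0.193, Inhbb at 0.898 ± 0.247, Bmp4 at 0.623 ± 0.202, Bmp2 at 0.326 ± 0.199, Bmp6 at 0.275 ± 0.0176 and Tgfb1 at 0.170 ± 0.0244 RPKM. From Inhbb to Bmp6 each gene overlapped the next, and Bmp2 overlapped Tgfb1. In KO retina Tgfb2 led again, at 11.8 ± 0.452 RPKM, and Id3 (7.31 ± 0.771), Id1 (5.95 ± 0.903) and Tgfb3 (5.88 ± 0.422) again overlapped as neighbours. Below them came Smad7 at 2.03 ± 0.232, Inhbb at 1.41 ± 0.0743, Bmp4 at 0.854 ± 0.186, Bmp2 at 0.486 ± 0.182, Tgfb1 at 0.304 ± 0.0550 and Bmp6 at 0.279 ± 0.0582 RPKM, with overlaps from Bmp2 down.

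**Figure D1:**
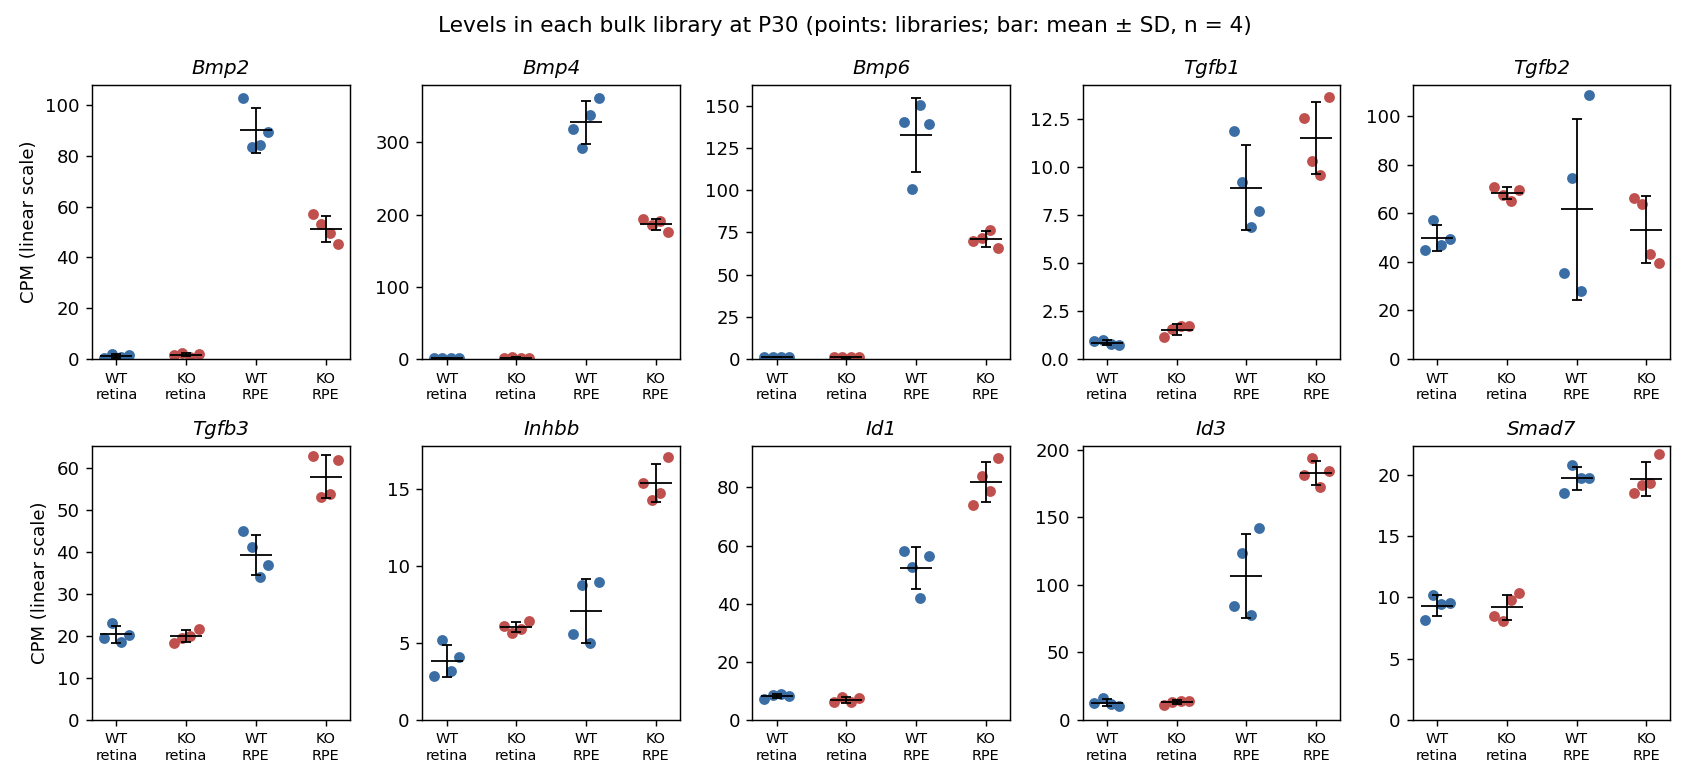
Level of each member in the 16 bulk libraries at P30, in CPM on a linear scale with all libraries scaled together by TMM; points are libraries, bars the mean ± SD (n = 4), blue WT and red KO. Bmp2, Bmp4 and Bmp6 lie lower in KO than in WT RPE without overlap, and Tgfb2 spreads widely among the WT RPE libraries.

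KO and WT mice were then compared within each tissue, to learn which members change without AdipoR1. In the RPE 3 of the 10 members fell (Bmp2, Bmp4 and Bmp6), where 3.89% of the 18989 genes tested fell, and 3 rose (Tgfb3, Inhbb and Id1), where 2.84% of all genes rose. The members were chosen with earlier results of these data known, the fall of Bmp4 among them. These counts therefore describe a chosen list and give no independent support. When a KO RPE library was left out, whichever it was, the number that rose was 0, while the 3 falls held. Calls over all genes also became fewer there. Without KO RPE libraries 1 to 4 in turn, 290, 300, 341 and 263 genes rose, against 539 with all libraries. The genes that fell were 430, 396, 493 and 382, against 739, with 19255 to 19354 genes tested. Without WT RPE library 1, 1310 of 19226 genes rose and 820 fell, so that 61.5% of the passing genes were higher, against 42.2% with all libraries. The median log2 fold change was 0.16 over the members and -0.019 over all genes tested in the RPE. In the retina 3 of the 10 rose (Tgfb1, Tgfb2 and Inhbb), where 16.2% of the 19381 genes tested rose. No member fell in the retina by edgeR's quasi-likelihood test, where 14.7% of all genes fell; at an unadjusted p below 0.05 there was 1 (Id1), and by DESeq2 there was 0. The retinal median was 0.26 over the members and 0.0036 over all genes. The makeup of the KO retina differed as well: rod markers summed to 56530 to 62100 CPM in WT and 28710 to 33310 CPM in KO libraries, with 6 of 7 lower, and the 5 astrocyte markers to 129.8 to 140.4 and 343.2 to 387.5 CPM, with 3 higher. Their part in the retinal results was not tested. When the retina libraries were scaled by their totals alone the median of all genes moved to 0.11 and that of the members to 0.37, and the 3 calls held. Of the 19381 genes 5855 then rose and 1485 fell.

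The BMP ligands were abundant in the RPE and scarce in the retina. Bmp4 (ENSMUSG00000021835, chr14:46383520-46390669, minus strand), a BMP that directs early eye patterning, was at 292.6, 263.2, 291.9 and 332.8 CPM in the WT RPE libraries 1 to 4 and at 173.8, 164, 167.9 and 158.3 CPM in the KO RPE libraries. All KO libraries lay below all WT libraries, and the KO libraries lay closer together. Bmp2 (ENSMUSG00000027358, chr2:133552159-133562885), a close relative of Bmp4 that binds the same receptors, was at 94.4, 75.0, 72.7 and 82.4 CPM in WT RPE and at 51.1, 47.0, 43.6 and 40.5 CPM in KO RPE. Its groups did not overlap either. Bmp6 (ENSMUSG00000039004, chr13:38345107-38500302), the BMP best known for regulating hepcidin and iron, was at 129.1, 90.5, 130 and 128 CPM in WT RPE and at 62.7, 63.7, 67.4 and 59.0 CPM in KO RPE. WT library 2 was the low one of its group and still lay above every KO library. The log2 fold changes in the RPE were -0.83 for Bmp4 (standard error 0.079), -0.83 for Bmp2 (0.105) and -0.92 for Bmp6 (0.120), with adjusted p = 0.0011, 0.0034 and 0.0041 in that order (edgeR quasi-likelihood, Benjamini-Hochberg).

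These falls depended little on single libraries. Over 18 alternative settings the log2 fold change ran from -0.89 to -0.77 for Bmp4 and from -1.03 to -0.87 for Bmp6, and both passed in all 18. Bmp2 passed in 17, with log2 fold changes from -0.94 to -0.75. The setting that ended its call was a single fit of both tissues, where its adjusted p was 0.085 (edgeR quasi-likelihood, Benjamini-Hochberg), in a range over the settings from 2.2e-13 to 0.085. The RPE markers moved with these ligands in part: 2 of the 9 fell, namely Rpe65, from 4065 ± 888 to 2126 ± 32.9 CPM, and Lrat, from 2555 ± 431 to 1535 ± 103 CPM (SD, n = 4), and their part in the result was not tested. Of the 10 lens markers 2 fell in KO RPE as well, and 0 rose. With the summed rod markers as a covariate, added after seeing the data, the log2 fold changes were -0.86 for Bmp4, -0.90 for Bmp2 and -0.95 for Bmp6, and with the summed lens markers -0.78 for Bmp4, -0.85 for Bmp2 and -1.02 for Bmp6.

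In the retina Bmp4 was at 0.952, 2.04, 1.36 and 1.90 CPM in WT mice and at 1.76, 2.81, 1.96 and 2.06 CPM in KO mice. Bmp2 was at 0.476, 2.22, 0.828 and 1.66 CPM in WT and at 1.84, 2.51, 0.947 and 2.44 CPM in KO retina, and Bmp6 lay between 1.05 and 1.59 CPM in all 8 libraries. The groups overlapped for all 3 genes. Their log2 fold changes were 0.46 for Bmp4 (standard error 0.23), 0.57 for Bmp2 (0.39) and 0.02 for Bmp6 (0.18), with adjusted p = 0.15, 0.30 and 0.95 (edgeR quasi-likelihood, Benjamini-Hochberg). Counts behind these values were 28 to 94 reads per library for Bmp4 and 14 to 84 for Bmp2.

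Tgfb2 (ENSMUSG00000039239, chr1:186622792-186705989, minus strand), the form that Müller glia and ocular fluids are known for, was at 50.2, 63.9, 52.8 and 54.9 CPM in WT retina and at 79.5, 75.2, 72.4 and 78.5 CPM in KO retina. Every KO library was above every WT library, and the log2 fold change was 0.46 (standard error 0.066; edgeR quasi-likelihood test, Benjamini-Hochberg adjusted p = 1.3e-04). In a single fit of both tissues the same difference had an adjusted p of 0.42 (edgeR quasi-likelihood, Benjamini-Hochberg), in a range over 14 settings from 9.5e-10 to 0.42. The common coefficient of variation was 0.0921 in the retina libraries alone and 0.229 in that fit. In the RPE Tgfb2 was at 32.4, 66.9, 24.1 and 100.0 CPM in WT mice and at 59.4, 56.6, 38.1 and 35.4 CPM in KO mice. WT libraries 2 and 4, the ones high in lens and ciliary markers, were the high ones, and the KO libraries lay inside the WT range. The log2 fold change in the RPE was -0.23 (standard error 0.44; edgeR quasi-likelihood test, Benjamini-Hochberg adjusted p = 0.79). It was 0.90 with the summed lens markers as a covariate and 0.75 without WT libraries 2 and 4, and passed in neither setting.

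Tgfb1 (ENSMUSG00000002603, chr7:25687002-25705077), the form that immune cells and platelets make in quantity, was scarce in the retina, at 1.05, 1.09, 0.866 and 0.810 CPM in WT mice and at 1.26, 1.76, 1.89 and 1.93 CPM in KO mice. No KO library reached down to a WT library, and the log2 fold change was 0.83 (standard error 0.19; edgeR quasi-likelihood test, Benjamini-Hochberg adjusted p = 0.0048). Microglial and macrophage markers moved with it: all 9 rose in KO retina, and their sum was at 67.2, 69.2, 71.4 and 67.9 CPM in WT and 230.4, 232.2, 267.7 and 251.6 CPM in KO retina. The part of these cells in the rise of Tgfb1 was not tested. In the RPE Tgfb1 was at 10.9, 8.31, 5.95 and 7.11 CPM in WT and at 11.2, 9.16, 8.42 and 12.2 CPM in KO libraries, which overlapped. Its log2 fold change there was 0.34 (standard error 0.21; edgeR quasi-likelihood test, Benjamini-Hochberg adjusted p = 0.40). In the same libraries 8 of the 9 microglial markers rose, with sums of 682.1, 428.8, 589.2 and 653.3 CPM in WT and 789.9, 841.7, 858.5 and 879.4 CPM in KO RPE.

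Tgfb3 (ENSMUSG00000021253, chr12:86056745-86079041, minus strand), known for its role in palate fusion and wound repair, was at 41.4, 37.1, 29.5 and 33.9 CPM in WT RPE and at 56.2, 47.2, 47.4 and 55.7 CPM in KO RPE. The KO libraries were all above the WT libraries, and the log2 fold change was 0.54 (standard error 0.12; edgeR quasi-likelihood test, Benjamini-Hochberg adjusted p = 0.031). This call was fragile: it was lost when WT library 3 or 4 or any KO library was left out, where the log2 fold change was between 0.46 and 0.59 and the adjusted p between 0.057 and 0.10 (edgeR quasi-likelihood, Benjamini-Hochberg). It was also lost without WT libraries 2 and 4 together, without 2 and 3 together, and with lens markers as a covariate, where the log2 fold change was 0.54, 0.47 and 0.54 and the adjusted p 0.14, 0.079 and 0.18, in a range over 18 settings from 1.7e-04 to 0.18 (edgeR quasi-likelihood test, Benjamini-Hochberg; DESeq2 at the low end). In the retina Tgfb3 lay between 20.6 and 25.9 CPM in all 8 libraries, with a log2 fold change of -0.04 (standard error 0.078).

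Inhbb (ENSMUSG00000037035, chr1:119415465-119422248, minus strand) encodes the subunit of activin B and inhibin B, and was the member that rose in both tissues. In the retina it was at 3.195, 5.81, 3.54 and 4.51 CPM in WT mice and at 6.86, 6.28, 6.56 and 7.18 CPM in KO mice. In the RPE it was at 5.11, 7.87, 4.30 and 8.21 CPM in WT mice and at 13.8, 12.6, 12.95 and 15.3 CPM in KO mice. The groups were apart in both tissues, and in the RPE WT libraries 2 and 4 were again the high ones of their group. The log2 fold change was 0.66 in the retina (standard error 0.16) and 1.10 in the RPE (0.22), with adjusted p = 0.0060 and 0.023 (edgeR quasi-likelihood, Benjamini-Hochberg). The RPE call was lost when any KO library was left out, where the log2 fold change was between 1.05 and 1.14 and the adjusted p between 0.054 and 0.076, in a range over 18 settings from 1.3e-05 to 0.076 (edgeR quasi-likelihood test, Benjamini-Hochberg; DESeq2 at the low end).

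The Id genes encode inhibitors of DNA binding, helix-loop-helix proteins that BMP signals through SMADs are known to induce. Id1 (ENSMUSG00000042745, chr2:152736251-152737410) was at 53.4, 47.2, 36.1 and 52.0 CPM in WT RPE and at 66.3, 74.4, 69.2 and 80.9 CPM in KO RPE. Id3 (ENSMUSG00000007872, chr4:136143497-136145755) was at 77.3, 111.0, 66.8 and 130.6 CPM in WT RPE and at 162.2, 171.9, 151.9 and 165.6 CPM in KO RPE. For both genes every KO library lay above every WT library, and for Id3 WT libraries 2 and 4 were the high ones of their group. Id1 rose by a log2 fold change of 0.62 (standard error 0.13; edgeR quasi-likelihood test, Benjamini-Hochberg adjusted p = 0.026). Its call was lost when any KO library was left out, without WT libraries 2 and 4 together and with lens markers as a covariate, where the log2 fold change was between 0.57 and 0.70 and the adjusted p between 0.054 and 0.12, in a range over 18 settings from 3.3e-05 to 0.12 (edgeR quasi-likelihood test, Benjamini-Hochberg; DESeq2 at the low end). The log2 fold change of Id3 was 0.76 (standard error 0.20), which missed the threshold (edgeR quasi-likelihood test, Benjamini-Hochberg adjusted p = 0.067). In a fit with the replicate number as a block it was 0.81 (edgeR quasi-likelihood test, Benjamini-Hochberg adjusted p = 0.038), though the numbers are not shown to pair the libraries. It also passed without WT library 4 (0.94), without WT libraries 2 and 4 (1.18), with lens markers as a covariate (1.23) and in a single fit of both tissues (0.78), with adjusted p = 0.028, 0.0029, 0.0046 and 0.0085 (edgeR quasi-likelihood, Benjamini-Hochberg). DESeq2 gave Id3 a Benjamini-Hochberg adjusted p of 0.0016, the low end of a range over 18 settings that reached 0.16.

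Retinal Id levels were lower than those in the RPE. Id1 was at 7.89, 9.58, 10.1 and 9.08 CPM in WT retina and at 6.73, 8.85, 6.70 and 8.61 CPM in KO retina, and Id3 lay between 10.98 and 17.9 CPM in all 8 libraries. The groups overlapped, with log2 fold changes of -0.25 for Id1 (standard error 0.11) and 0.06 for Id3 (0.13), and adjusted p = 0.12 and 0.76 (edgeR quasi-likelihood, Benjamini-Hochberg). Smad7 (ENSMUSG00000025880, chr18:75367529-75395935) encodes the inhibitory SMAD that blocks the receptors of the family and is itself induced by them. It lay between 8.999 and 11.6 CPM in the retina libraries and between 16.5 and 19.5 CPM in the RPE libraries. Its log2 fold changes were -0.03 (retina, standard error 0.098) and -0.02 (RPE, 0.081), and the groups overlapped in both tissues.

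Whether a member responded differently in the tissues was tested as an interaction term in a fit of the 16 libraries, given as the log2 fold change in the RPE minus that in the retina. Of the 10 members 2 had a lower KO effect in the RPE (Bmp4 and Bmp6), against 5.73% of the 21068 genes tested, and 2 a higher one (Tgfb3 and Id1), against 3.11%. The lower effect of Bmp4 rests in part on its fall in the RPE, which was known when the members were chosen. The median was -0.22 over the members and -0.053 over all genes. The difference of log2 fold changes was -1.27 for Bmp4 (standard error 0.26), -0.92 for Bmp6 (0.20), 0.60 for Tgfb3 (0.14) and 0.89 for Id1 (0.17), with adjusted p = 0.0058, 0.0086, 0.012 and 0.0041 (edgeR quasi-likelihood, Benjamini-Hochberg). Bmp4, Bmp6 and Id1 passed in 21 of 21 alternative settings. Tgfb3 missed the threshold in the setting that scaled libraries by their totals alone, with an adjusted p of 0.052 (edgeR quasi-likelihood, Benjamini-Hochberg), in a range over 21 settings from 0.0026 to 0.052. That scaling moved the median of all genes in this comparison from -0.053 to -0.18.

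For 6 members no difference between the tissues passed, which does not show that they respond alike. Bmp2 had a difference of -1.38, as large as that of Bmp4 but with a standard error of 0.47 (edgeR quasi-likelihood test, Benjamini-Hochberg adjusted p = 0.083). It passed without WT retina library 2 (adjusted p = 0.025) and without KO retina library 3 (0.039) (edgeR quasi-likelihood, Benjamini-Hochberg), and by DESeq2 (0.047), in a range over 21 settings from 0.025 to 0.17. Id3 had a difference of 0.72 (standard error 0.25; edgeR quasi-likelihood test, Benjamini-Hochberg adjusted p = 0.097), which passed without WT RPE library 4 (0.88, edgeR quasi-likelihood test, Benjamini-Hochberg adjusted p = 0.028, in a range over 21 settings from 0.028 to 0.18). The others were Inhbb at 0.47 (standard error 0.28), Tgfb1 at -0.47 (0.27), Tgfb2 at -0.67 (0.46) and Smad7 at 0.02 (0.13).

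The members were set beside 101 other genes of the pathway. In the retina 30 of the 81 tested rose, where 16.2% of all genes rose, and 3 fell, where 14.7% fell. Their median log2 fold change was 0.21, beside 0.26 for the members. The shares over all genes depend on the scaling: by library totals alone, 5855 of the 19381 genes rose and 1485 fell. Cell markers moved in the same retinas: 9 of 9 microglial, 6 of 8 Müller and 4 of 5 tested fibroblast markers rose, and their part in these rises was not tested. By role, 6 of 15 other ligands rose, 5 of 16 receptors and coreceptors (1 fell), 2 of 7 SMADs, 6 of 14 antagonists, 7 of 13 genes of ligand activation and storage (1 fell), and 4 of 16 other targets and inhibitors (1 fell). Among ligands Gdf10 rose most, from 1.85 to 5.68 CPM, with a log2 fold change of 1.62, and Gdf15, a stress-induced cytokine, rose by 1.36. Tgfbr2, the type II receptor that binds TGF-beta, rose from 5.39 to 9.54 CPM (log2 fold change 0.83), and Rgma, a BMP coreceptor, from 8.15 to 17.7 CPM (1.11). Acvr2b, an activin receptor, rose by 0.60, and of the SMADs Smad3 rose by 0.29 and Smad5 by 0.16, while Smad9 had a log2 fold change of 0.10 that did not pass.

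Genes that release or store ligands were the role with the largest share of rises in the retina. Bmp1, a protease that cleaves the BMP antagonist chordin, rose from 19.8 to 44.95 CPM (log2 fold change 1.18; edgeR quasi-likelihood test, Benjamini-Hochberg adjusted p = 6.1e-09). Itgb8 and Itgav, the chains of an integrin that frees TGF-beta from its latent form, rose by 1.25 and 0.62. Thbs1, which encodes thrombospondin 1, another activator of latent TGF-beta, rose from 6.03 to 14.1 CPM. The BMP antagonists Chrd and Chrdl1 rose by 0.70 and 0.51, and the targets Ccn1, Ccn2 and Tgif2 by 1.37, 0.56 and 1.01. In a single fit of both tissues Bmp15 (adjusted p = 0.10), Acvr2b (0.070), Smad5 (0.076) and Chrdl1 (0.31) no longer passed in the retina (edgeR quasi-likelihood, Benjamini-Hochberg). Bmp15, an oocyte ligand whose log2 fold change was 0.49, was also lost without WT retina library 3 or KO retina library 1 (adjusted p = 0.053 each, edgeR quasi-likelihood test, Benjamini-Hochberg).

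In the RPE 4 of the 83 other pathway genes tested rose, where 2.84% of all genes rose, and 1 fell, where 3.89% fell. Their median log2 fold change was -0.0037. Nog encodes noggin, a secreted protein that binds BMPs and blocks them. It was at 52.9, 48.4, 49.4 and 74.6 CPM in WT RPE and at 14.9, 11.8, 13.4 and 16.1 CPM in KO RPE. Every KO library was far below every WT library, and the log2 fold change of -2.004 (standard error 0.17; edgeR quasi-likelihood test, Benjamini-Hochberg adjusted p = 6.3e-04) passed in 18 of 18 alternative settings. Chrd encodes chordin, another BMP antagonist, and moved the opposite way: it was at 31.8, 23.9, 29.5 and 29.0 CPM in WT RPE and at 49.1, 51.2, 52.8 and 45.9 CPM in KO RPE. Its groups did not overlap, and its log2 fold change was 0.80 (standard error 0.095; edgeR quasi-likelihood test, Benjamini-Hochberg adjusted p = 0.0026).

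Id2, a close relative of Id1 and Id3, was at 112.9, 88.9, 103.7 and 109.4 CPM in WT RPE and at 304, 295.2, 345.9 and 333.8 CPM in KO RPE. The KO libraries were all far above the WT libraries, and the log2 fold change was 1.62 (standard error 0.093; edgeR quasi-likelihood test, Benjamini-Hochberg adjusted p = 1.8e-04), larger than that of Id1 or Id3. In the retina Id2 had a log2 fold change of -0.20 and did not pass, and the difference between the tissues was 1.84 (standard error 0.12; edgeR quasi-likelihood test, Benjamini-Hochberg adjusted p = 5.5e-07). Id4 did not pass in either tissue, with log2 fold changes of -0.07 (retina) and -0.13 (RPE). Rgma rose in the RPE as well, from 23.5 to 43.6 CPM (log2 fold change 0.89), and Thbs1 from 1116 to 2344 CPM (1.07). Both calls were lost with the summed lens markers as a covariate, where the log2 fold changes were 1.01 and 0.91 and the adjusted p was 0.059 and 0.052 (edgeR quasi-likelihood, Benjamini-Hochberg).

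Other pathway genes with small p values in the RPE did not pass, but several of these calls depend on the setting. The ligands Bmp7, Bmp15 and Gdf11 had log2 fold changes of -0.41, -0.62 and -0.17, and the receptors Acvr1 and Tgfbr2 0.29 and 0.45. The SMADs Smad9, Smad1 and Smad2 had 0.67, 0.27 and 0.16, and the BMP and Wnt antagonist Sostdc1 -0.96 (edgeR quasi-likelihood test, Benjamini-Hochberg adjusted p = 0.051). Sostdc1 passed in 8 of 18 settings, among them the one without WT RPE library 2 (log2 fold change -1.16, edgeR quasi-likelihood test, Benjamini-Hochberg adjusted p = 8.6e-05, in a range from 8.6e-05 to 0.15). The proteases Furin and Bmp1 had -0.18 and 0.34, and the target Ccn2 0.51. DESeq2 called Bmp7, Acvr1, Tgfbr2, Smad9, Furin, Bmp1 and Ccn2, with Benjamini-Hochberg adjusted p from 1.6e-04 (Furin) to 0.04997 (Tgfbr2). The single fit of both tissues called the same genes and Smad1 and Smad2, and over 18 settings the adjusted p of these genes reached 0.65 (Tgfbr2; edgeR quasi-likelihood, Benjamini-Hochberg). Bmp15 passed only without WT RPE library 2, and Gdf11 in no setting. Between the tissues 9 of 87 other pathway genes had a KO effect that was lower in RPE than in retina, against 5.73% of all genes, and 1 a higher one (Id2), against 3.11%. Among those lower were Nog (-1.73), Ccn1 (-1.63), Tgif2 (-1.26), Itgb8 (-1.09), Bmp15 (-1.08), Itgav (-0.93), Bmp1 (-0.81) and Ltbp3 (-0.52), in log2 units.

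The genes whose pattern over the 16 bulk libraries was most like that of a member were found by the mean absolute difference of centred log2 CPM, over 13652 other genes with a mean of at least 5 CPM. For Bmp4 they were Fgfr2 at 0.181, Veph1 at 0.216, Nid2 at 0.242, Fam243 at 0.243 and Tnfaip2 at 0.266, against a median of 3.59 over all genes compared. For Bmp2 they were Gja1 (0.31), Tmem56 (0.402) and Ptges (0.403), and for Bmp6 Enpp2 (0.165), Npr1 (0.198) and Pltp (0.209), where the medians were 2.82 and 3.19. Tgfb1 was most like Itga5 (0.129), Nod1 (0.152) and Stat6 (0.155), where the median over all genes was 1.55. For Tgfb2, Tgfb3 and Inhbb the medians were only 0.538, 0.736 and 0.747, and for Id1 it was 1.57. The medians largely follow the difference between WT RPE and WT retina, which was 7.87 in log2 for Bmp4 and 0.31 for Tgfb2. They therefore do not gauge how closely the nearest genes match. Tgfb2 was most like Dkk3 (0.133), a marker of Müller glia, then Slc7a2 (0.171) and Tead2 (0.211). Tgfb3 was nearest to Gm6311 (0.0906), Tbc1d2b (0.104) and Gm9396 (0.106), Inhbb to Lman1 (0.236), and Id1 to Rell1 (0.114), Igfbp4 (0.139) and Mroh7 (0.156). No other member was among the nearest genes of these 8 members; Id3 and Smad7 were not analysed here in this way.

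Promoters are shown for Bmp4 and Bmp6, since both fell in KO RPE and both hold the same short motif. Promoter sequences, from 250 bases before to 50 after the gene start that RefSeq gives, came from RefSeq on the build GRCm38.p6, and 6 of the 10 members matched: Bmp4, Bmp6, Tgfb1, Tgfb2, Inhbb and Id3. Bmp2, Tgfb3, Id1 and Smad7 had no entry. The motifs searched on both strands were CACGTG (the E-box), CAGAC (a SMAD-binding element) and GGCGCC (a GC-rich SMAD site); none contains another. CACGTG was found once in each of Bmp4, Bmp6 and Tgfb2 and in 7.15% of all 32851 promoters. CAGAC was found in Bmp6 (1 copy), Tgfb2 (2) and Id3 (2) and in 49.6% of all promoters. GGCGCC was in none of the 6 and in 11.9% of all promoters. A match describes the letters in this window and shows no binding. The sequences run 5′ to 3′ along the strand of the gene, with CACGTG in capitals: Bmp4 at chr14:46390620-46390919 on the minus strand (motif at bases 63 to 68) and Bmp6 at chr13:38345466-38345765 on the plus strand (bases 124 to 129). The window of Bmp6 lies inside the gene as bounded by its Ensembl coordinates above, since the annotated starts differ.
Bmp4 promoter: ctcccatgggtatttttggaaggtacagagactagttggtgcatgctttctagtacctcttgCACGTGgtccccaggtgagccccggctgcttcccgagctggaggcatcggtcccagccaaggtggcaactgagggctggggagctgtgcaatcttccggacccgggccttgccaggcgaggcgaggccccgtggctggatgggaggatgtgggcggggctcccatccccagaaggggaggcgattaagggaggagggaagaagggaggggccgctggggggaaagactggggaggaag
Bmp6 promoter: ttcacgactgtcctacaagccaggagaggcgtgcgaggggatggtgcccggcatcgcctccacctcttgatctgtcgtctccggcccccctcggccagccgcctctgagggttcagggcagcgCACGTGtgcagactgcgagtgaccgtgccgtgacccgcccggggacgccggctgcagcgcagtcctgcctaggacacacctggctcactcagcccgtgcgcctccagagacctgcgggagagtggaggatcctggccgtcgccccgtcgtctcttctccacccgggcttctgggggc

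The single-cell libraries show in which cell classes these transcripts were counted. Background RNA in the droplets was not estimated, so a class with few UMIs of a gene is not shown to express it. The WT libraries held 5439, 4367 and 2558 cells at P19, P25 and P30, and the KO libraries 5300, 5633 and 3467, which makes 26764 cells in all. Median UMIs (counted RNA molecules) per cell were 3407, 4357 and 1416 in WT and 3568, 2523 and 1349 in KO libraries. Of 26715 distinct barcodes 49 occurred in more than 1 library, at most 15 in any pair of libraries. Levels in cells are the UMIs of a gene scaled to CPM of all UMIs of the class or library (UMI CPM). Adipor1 stood at 104, 101.1 and 320.6 UMI CPM in the WT libraries at P19, P25 and P30, and at 26.3, 39.5 and 62.0 in the KO libraries. Cells fell into 38 clusters, of which 31, with 24818 cells, were named from marker genes. The other 7, with 1946 cells, are called by their leading gene. Rods were the largest class (8129 cells), followed by bipolar (6615) and amacrine cells (5113), Müller glia (2106) and cones (1569). Each genotype and age has a single library, so nothing was tested here, and the 95% intervals given (exact Poisson) cover counting error only.

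Levels over the 6 libraries together mix ages, and classes draw unequally on the P30 libraries, where levels were lower for Tgfb2 (52.4 and 56.1 UMI CPM in whole libraries, against 173.4 to 244.3 at P19 and P25). The orders of classes below are descriptions of the pooled counts. Bmp2 and Bmp4 shared their highest cluster among the sequenced cells, and Bmp6 had another. Over the 6 libraries Bmp4 was highest in the cluster led by Ttr, at 181 UMI CPM (95% interval 162.3 to 201.3), followed by horizontal cells at 77.8 (67.6 to 89.1) and pericytes at 11.1 (3.60 to 25.9). Amacrine cells had no Bmp4 UMI among 31550732. The Ttr cluster, with 229 cells, also expressed Optc, Dct and Pmel, and its markers were nearest to those of ciliary epithelium. It was left unnamed because its leading genes include more RPE markers (Ttr and Pmel) than ciliary markers (Optc). Bmp2 was highest there too, at 203.4 UMI CPM (183.5 to 224.8), above pericytes at 64.2 (43.0 to 92.3) and microglia at 33.3 (20.6 to 50.8). Bmp6 was instead nearly absent from the Ttr cluster (2 UMIs, or 1.07 UMI CPM) and highest in the cluster led by Col12a1, at 44.9 (30.9 to 63.1). It was followed by those led by Cntn6 at 9.24 (4.92 to 15.8) and Ppp1r17 at 8.47 (4.23 to 15.2), whose intervals overlap.

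Among the TGF-beta genes, Tgfb1 was highest in microglia at 190 UMI CPM (157.5 to 227.2), then in endothelial cells at 92.1 (81.3 to 103.9), pericytes at 35.4 (20.3 to 57.6) and amacrine cells at 32.3 (30.3 to 34.3), where the intervals of pericytes and amacrine cells overlap. Tgfb2 was at 807.9 (742.2 to 878) in a small cluster of 71 cells led by Gfap, followed by Müller glia at 673.5 (657.6 to 689.7), the Ttr cluster at 594.2 (559.8 to 630.1) and bipolar cells at 328.3 (321 to 335.8). Müller glia of P19 alone were at 782.7 in WT and 771.9 in KO, inside the interval of the Gfap cluster, so the order of these groups is not settled. In rods, by contrast, Tgfb2 was at 8.31 UMI CPM. Tgfb3 marked starburst amacrine cells, at 219.5 (196.7 to 244.2) against 9.89 (8.82 to 11.1) in other amacrine cells, with pericytes between them at 70.9 (48.5 to 100.1). Inhbb was low in all classes, with the most in the Ttr cluster at 11.7 (7.34 to 17.7), cones at 10.2 (7.83 to 13.2) and bipolar cells at 4.33 (3.53 to 5.27), of which the first pair overlap.

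Of the targets, Id1 was highest in endothelial cells, at 1961 UMI CPM (1910 to 2014), then in the Gfap cluster at 1142 (1064 to 1225) and Müller glia at 718.2 (701.8 to 734.9). Id3 was highest in the Gfap cluster at 3496 (3358 to 3639), with endothelial cells at 1304 (1263 to 1347) and Müller glia at 1262 (1240 to 1284), which overlap. Pericytes followed for Id3 at 879.3 (795 to 970.3) and the Ttr cluster at 819.9 (779.5 to 861.9). In bipolar cells Id1 was at 1.65 and Id3 at 2.34 UMI CPM. Smad7 was highest in endothelial cells at 358.8 (337.1 to 381.5), microglia at 182.1 (150.3 to 218.5) and pericytes at 101.9 (74.6 to 135.9), with Müller glia at 24.9 (21.9 to 28.2), below amacrine cells at 42.2 (39.95 to 44.5).

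**Figure D2:**
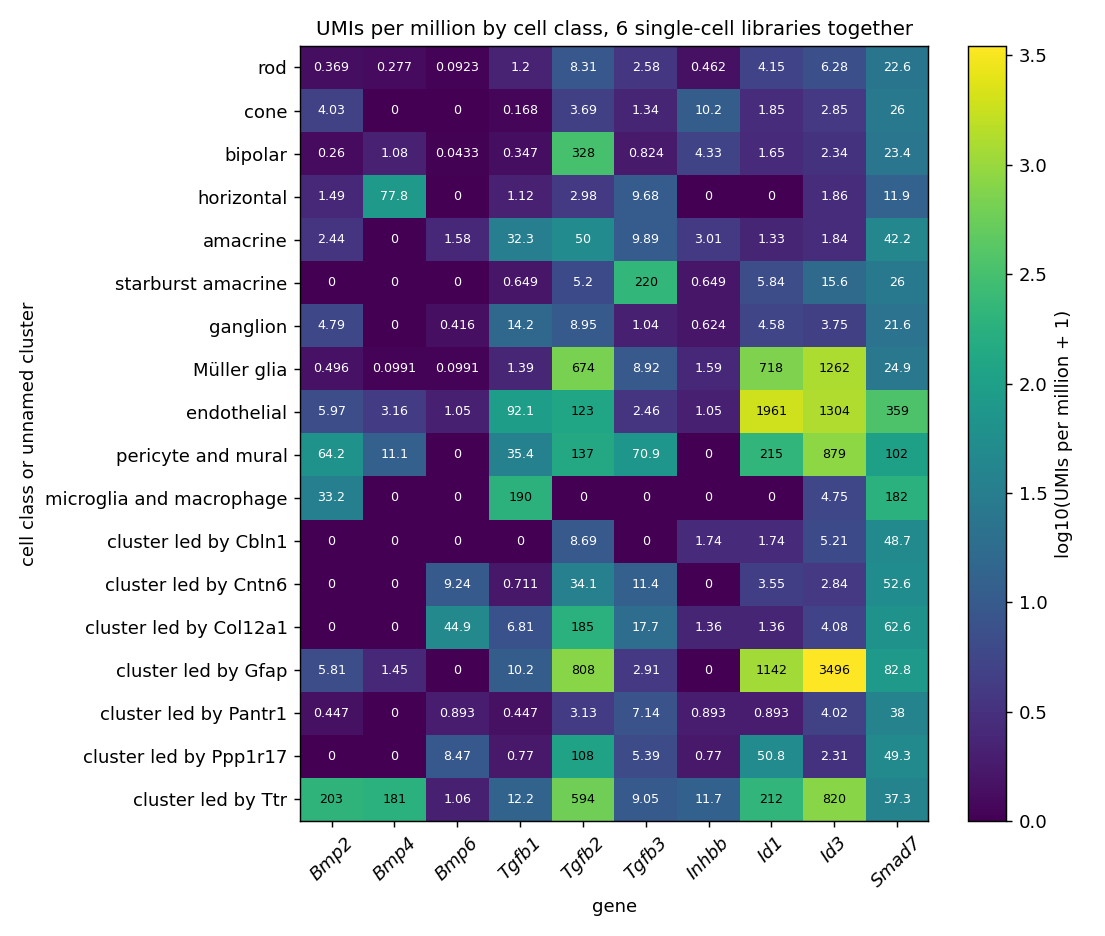
Level of each member (columns) in each cell class or unnamed cluster (rows), in UMI CPM over the 6 single-cell libraries together; color is log10 of the level plus 1 and the numbers are the levels. Bmp2 and Bmp4 stand out in the cluster led by Ttr, Tgfb1 in microglia, Tgfb3 in starburst amacrine cells, and Id1 in endothelial cells.

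KO and WT libraries were compared class by class at each age, where both held at least 50 cells of a class and a member had at least 20 UMIs in both together. A difference is named where the intervals are apart and the ratio of KO to WT is at least 1.5 either way. This gave 78 comparisons of members over 24 pairs of class and age. Of these 2 were higher in KO, where 2.20% of 217511 comparisons over all genes were higher, and 6 were lower, where 1.88% were lower.

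Müller glia gave 3 of the 6 lower values, all in the Id genes. At P25 Id1 was at 802 UMI CPM (760.1 to 845.6) in WT and at 474.9 (452.9 to 497.8) in KO Müller glia, a ratio of 0.592. Id3 was at 1381 (1326 to 1438) and 808.5 (779.7 to 838.2), a ratio of 0.585. These levels are per UMI of the class, and per cell the genotypes lay closer. Id1 had 1371 UMIs in 381 WT cells and 1744 in 577 KO cells, and Id3 had 2361 and 2969. Whole P25 libraries ran the other way, with Id1 at 113.8 UMI CPM in WT and 142.4 in KO, and Id3 at 148.3 and 229.5. Whole-library levels also depend on the share of each class: Müller glia were 381 of 4367 WT cells and 577 of 5633 KO cells. The part of that share was not tested. At the finer resolution of 2.0 most WT and KO Müller cells of P25 lay in different clusters, with 319 WT and 13 KO cells in the largest and 13 WT and 480 KO cells in the next. For both genes the intervals in P25 Müller glia are far apart, and 5.48% of all genes compared there were named lower. Such shares include genes with as few as 20 UMIs, whose intervals are wider, and are not matched to the counts of the Id genes. At P30 Id1 was at 256.5 (198 to 326.9; 65 UMIs) in WT and 112.7 (84.9 to 146.7; 55 UMIs) in KO, a ratio of 0.439, where 4.16% of all genes were named lower. Id3 at P30 had a ratio of 0.690 (757.6 in WT, 522.5 in KO), which is not past the ratio used here. At P19 the order was the other way round, and not by enough to be named: Id1 was at 865.9 (819.8 to 913.8) in WT and 1103 (1061 to 1145) in KO, and Id3 at 1444 (1384 to 1505) and 1946 (1891 to 2003), ratios of 1.27 and 1.35. Of the 10769 genes compared in P19 Müller glia, 305 were named higher and 420, or 3.90%, lower. The Müller cells behind the levels were 367 WT and 498 KO at P19, 381 and 577 at P25, and 129 and 154 at P30. The median log2 ratio over all genes compared was -0.126, -0.069 and -0.113 at the same ages.

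Tgfb2 in Müller glia differed little, with 782.7 (739 to 828.4) in WT and 771.9 (737.4 to 807.6) in KO at P19, 708.4 (669.1 to 749.5) and 635.3 (609.8 to 661.6) at P25, and 256.5 (198 to 326.9) and 221.3 (181.5 to 267.2) at P30. The ratios were 0.986, 0.897 and 0.863, and the intervals at P25 are apart. In bipolar cells, the most numerous cells with much Tgfb2, the ratios were 1.10, 1.29 and 0.916, and at P25 the intervals are apart the other way, at 334 (319 to 349.5) in WT and 431 (411.3 to 451.5) in KO. Müller markers summed to 4053 to 4389 CPM in the WT and 4462 to 4804 CPM in the KO bulk retina libraries, and 6 of the 8 rose. Glul, the most abundant, fell from 2169 to 1819 CPM, and Apoe rose from 459.3 to 972.5 CPM. Their part in the bulk rise of Tgfb2 was not tested.

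**Figure D3:**
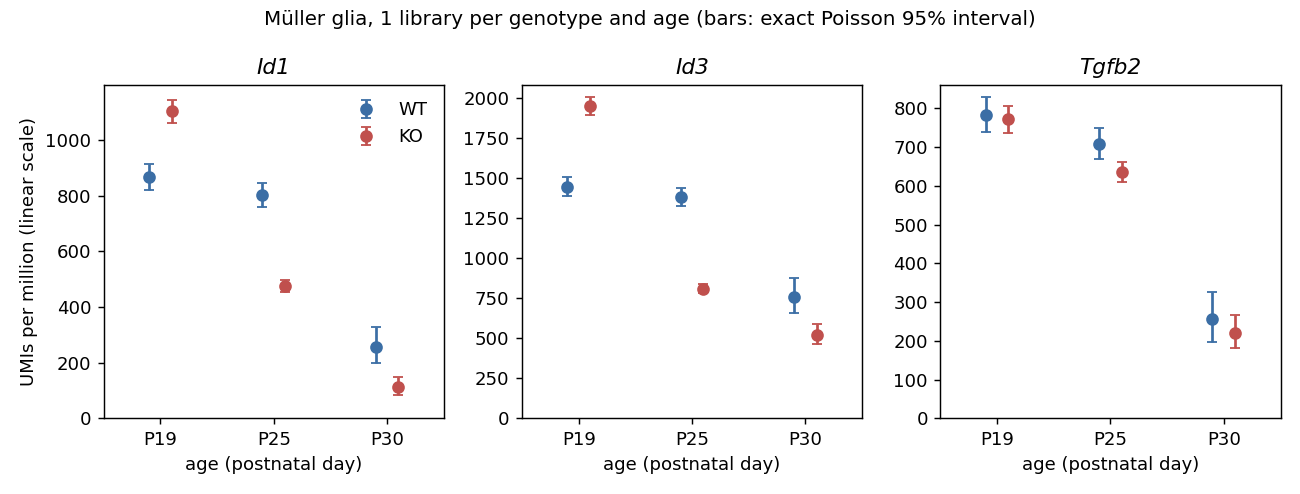
Levels of Id1, Id3 and Tgfb2 in Müller glia of 1 WT (blue) and 1 KO (red) library at each age, in UMI CPM on a linear scale; bars are exact Poisson 95% intervals. Id1 and Id3 are higher in KO at P19 and lower in KO at P25 and P30, whereas Tgfb2 stays within a ratio of 0.863 to 0.986.

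In endothelial cells at P19 Smad7 was higher in KO, at 283.7 (252.4 to 317.7) in WT and 595.6 (538.7 to 656.9) in KO, a ratio of 2.099, and Tgfb2 lower, at 158.4 (135.3 to 184.4) and 67.0 (48.9 to 89.7), a ratio of 0.423. These came from 93 WT and 53 KO cells. Inhbb in bipolar cells at P19 was lower, with 44 UMIs in WT and 13 in KO (6.98 and 2.63 UMI CPM, ratio 0.377), but had a ratio of 1.42 at P25. Tgfb2 in ganglion cells at P25 was higher, with 8 and 21 UMIs (ratio 3.82), and was not compared without the 5% of cells with the most UMIs. Id1 in the Ttr cluster at P19 was lower, at 257.6 (225.5 to 293.1) in WT and 158.1 (122 to 201.5) in KO, a ratio of 0.614 that became 0.848, and was no longer named, without those cells. In the same cluster at P19, from 96 WT and 58 KO cells, Bmp4 was at 192.9 (165.3 to 223.9) and 235.9 (191.3 to 287.8), and Bmp2 at 187.4 (160.1 to 217.9) and 243.2 (197.9 to 295.8). The intervals of both ligands overlap between the genotypes.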

How the data were processed

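The members and the other gene lists were chosen with earlier results of these data known. The bulk count values are read counts on Ensembl genes of mm10, made by the authors and deposited as whole numbers; the sources used here list HOMER and edgeR 3.20.9 without saying for which step, and name no aligner. The single-cell values are natural log values made by the authors with Cell Ranger 2.1 and Seurat 3.2.2 and deposited as ln(1 + x), where x sums to 10000 in a cell. UMIs were recovered from them, and all but 7 of 46532493 values were whole within 0.01. RPE had been shaken off the eyecup after the lens and anterior segment were removed, and retinal cells were dissociated with papain. Of 53801 identifiers 53706 have a symbol.

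Bulk genes were filtered with filterByExpr, scaled by TMM and tested with edgeR 4.0.16, with DESeq2 1.42.0 as an alternative. Cells were clustered on 2000 variable genes, 30 principal components and 15 neighbours (Leiden, resolution 1.0, alternative 2.0) with scanpy 1.11.5. Clusters were named by at least 3 markers that were 2 times higher and found in 10% of cells. No doublet caller was used; instead the 5% of cells with the most UMIs were left out as an alternative. Genes named are every member, Adipor1, the 3 other pathway genes of each role with the smallest p in each tissue, and those nearest to a member; other passing genes are named where an interaction passed. Some genes that meet these rules are not reported here.

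RPE libraries hold uneven amounts of rod, lens and ciliary RNA. The RPE calls of Tgfb3, Inhbb and Id1 were lost when any KO RPE library was left out, with the direction unchanged. Over all genes the number passing in the RPE then went from 1278 to between 645 and 834. Same-numbered WT and KO RPE libraries deviated together (correlations 0.48, 0.452, 0.59 and 0.276). The best matches of WT RPE libraries 1 to 4 were, however, KO RPE libraries 4, 3, 3 and 1. The labels give only a number, so pairing is not established, and the block fit is an alternative only. In the retina the correlations were 0.189, 0.0804, 0.0434 and 0.14. Single-cell intervals cover counting error only and not differences between mice.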

Additional observations from a re-analysis of the deposited data

Results flagged for a closer look

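In 3 of the 40 groups of 4 libraries, a single library stood apart from the other 3; about 1 in 20 groups would do so by chance. Bmp6 was high in KO retina library 3, at 1.589 CPM, where the others lay between 1.046 and 1.134 CPM. Bmp6 was low in WT RPE library 2, at 90.48 CPM, where the others lay between 128 and 130 CPM. Smad7 was high in KO RPE library 4, at 19.48 CPM, where the others lay between 16.53 and 17.03 CPM. For 4 members the KO effect differed between RPE and retina, given as RPE minus retina in log2 units: -1.269 for Bmp4, -0.9183 for Bmp6, 0.5964 for Tgfb3 and 0.8946 for Id1. The cause was not tested.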

How the results depend on the processing

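No result that passed changed direction under an alternative setting, while some differences that did not pass changed sign, Tgfb2 in the RPE among them. In the retina 5990 genes passed, which became 1946 with a fold change of at least 1.5 required and 2731 in a single fit of both tissues; that fold change left 2 of 3 members in the retina (without Tgfb2) and 5 of 6 in the RPE (without Tgfb3); leaving out a library gave 4941 to 6243 genes and 3 members each time. In the RPE 1278 genes passed, which became 2701 by DESeq2, 2863 in a single fit, 2001 with rod markers as a covariate and 441 with lens markers as a covariate, both covariates having been chosen after seeing the data. Leaving out an RPE library gave 645 (without KO library 4) to 2130 genes (without WT library 1) and 3 to 6 members. For the interaction 1863 genes passed, 1449 to 2270 when a library was left out, with 4 to 5 members; for WT RPE against WT retina 17827 genes passed, 17478 to 18093, with 9 members each time. Scaling by library totals made 79.77% of the passing retina genes higher in KO, against 52.49%, and moved the median log2 fold change of all genes to 0.1142; in the interaction the share was 14.25% against 35.21%. With the replicate number as a replicate block Id3 passed in the RPE and no other RPE member changed its call. An RPE library was most like the library of its own number in 1 of 4 cases. In the retina, where libraries likewise share only a number, Bmp4 passed under the replicate block with a log2 fold change of 0.48. Its adjusted p was 0.0496 (edgeR quasi-likelihood, Benjamini-Hochberg), in a range over 14 settings from 0.0496 to 0.37. Of 180 alternatives for the 10 members in the RPE, 154 left the member as it was, whether it had passed or not. In 20 a call was lost and in 6 a call was gained. In single cells 1 member difference was named higher without the 5% of cells with the most UMIs, against 2, and 5 lower, against 6. The cause was not tested.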
